A study of Oryza longistaminata with 12 samples.

Results

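The 34 genes described here were chosen for a graded level in roots of *O. longistaminata*, a perennial wild rice, highest in +N split roots, then in +N, then in −N, and lowest in −N split. They are 34 of the 29335 gene models in the deposited table of counts. Levels are given as CPM, the reads of a gene per 1000000 reads counted in its library. A gene was chosen when its +N split mean was at least 5 CPM, when the group means fell at least 1.3-fold at each of the 3 steps, and when the lowest library of the higher group stood above the highest library of the next at each step. In all 45 genes met these thresholds, and 11 of them were left out, 8 for carrying an *Ol* gene name and 3 by identifier. Since all 12 libraries chose the genes, their order, the sizes of their steps and every count of calls on them are a description and not a test of the pattern.

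All roots came from accession IRGC10404, grown in hydroponic culture with 1 mM NH4Cl as the nitrogen source. Ramet pairs, young plants joined by a rhizome, had each root of the pair in its own pot for 24 h. Roots of the +N group received 2.5 mM NH4Cl, as did those of the partner ramet, and roots of the −N group and of their partners received 0 mM. In split pairs the +N split root received 2.5 mM and its partner, the −N split root, 0 mM. The first step of the order thus compares supplied roots whose partner was deprived or supplied, the next compares supplied and deprived pairs, and the last compares deprived roots whose partner was deprived or supplied. Each group had 3 libraries, and whether the libraries of both split groups came from the same pairs is not stated. The labels of −N replicate 1 are at odds, with −N in the title and a split treatment in the treatment field, and it was placed by its title.

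Ammonium taken up by rice roots is joined to glutamate to make glutamine, and amino groups are then passed on by aminotransferases. The carbon skeletons for this come from glycolysis and from organic acids such as malate, so both pathways meet in the root. Clonal plants that share a rhizome can adjust a root to the supply of its neighbour as well as to its own.

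The libraries held 39071838 to 56252511 counted reads, the deepest being −N replicate 2. By CPM the median fold of +N split over −N split was 0.905 over the 25005 genes tested (−0.14 on the log2 scale), and with edgeR's TMM scaling of library sizes it was 0.988. The 25 genes with photosynthesis descriptions, read as a sign of leaf RNA, summed to 1561 to 3634 CPM in +N split, 2557 to 3287 in +N, 1618 to 2437 in −N and 723 to 2442 in −N split. The +N split range overlapped the others, the +N range lay above both deprived groups, and their part in the results was not tested. In bulk roots, fewer cells of a type and less RNA per cell cannot be told apart.

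The 34 genes together took 7103, 7320 and 7411 CPM in the +N split libraries, 4393, 5051 and 4197 in +N, 2556, 2302 and 2667 in −N, and 1499, 1678 and 1692 in −N split. The sum was 7278 ± 158 (SD, n = 3) in +N split and 1623 ± 108 in −N split, with 4547 ± 447 in +N and 2509 ± 187 in −N between them. The −N library with conflicting labels lay between the other 2 −N libraries. It also lay above every −N split library, but the rule required this of each member, so it does not bear on the label. The fold between group means had a median of 1.58 from +N split to +N (range 1.31 to 2.58), 1.86 from +N to −N (1.31 to 3.33) and 1.72 from −N to −N split (1.32 to 7.28). From one side of the split pairs to the other it had a median of 5.43 and ranged from 2.51 to 23.9.

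**Figure D1:**
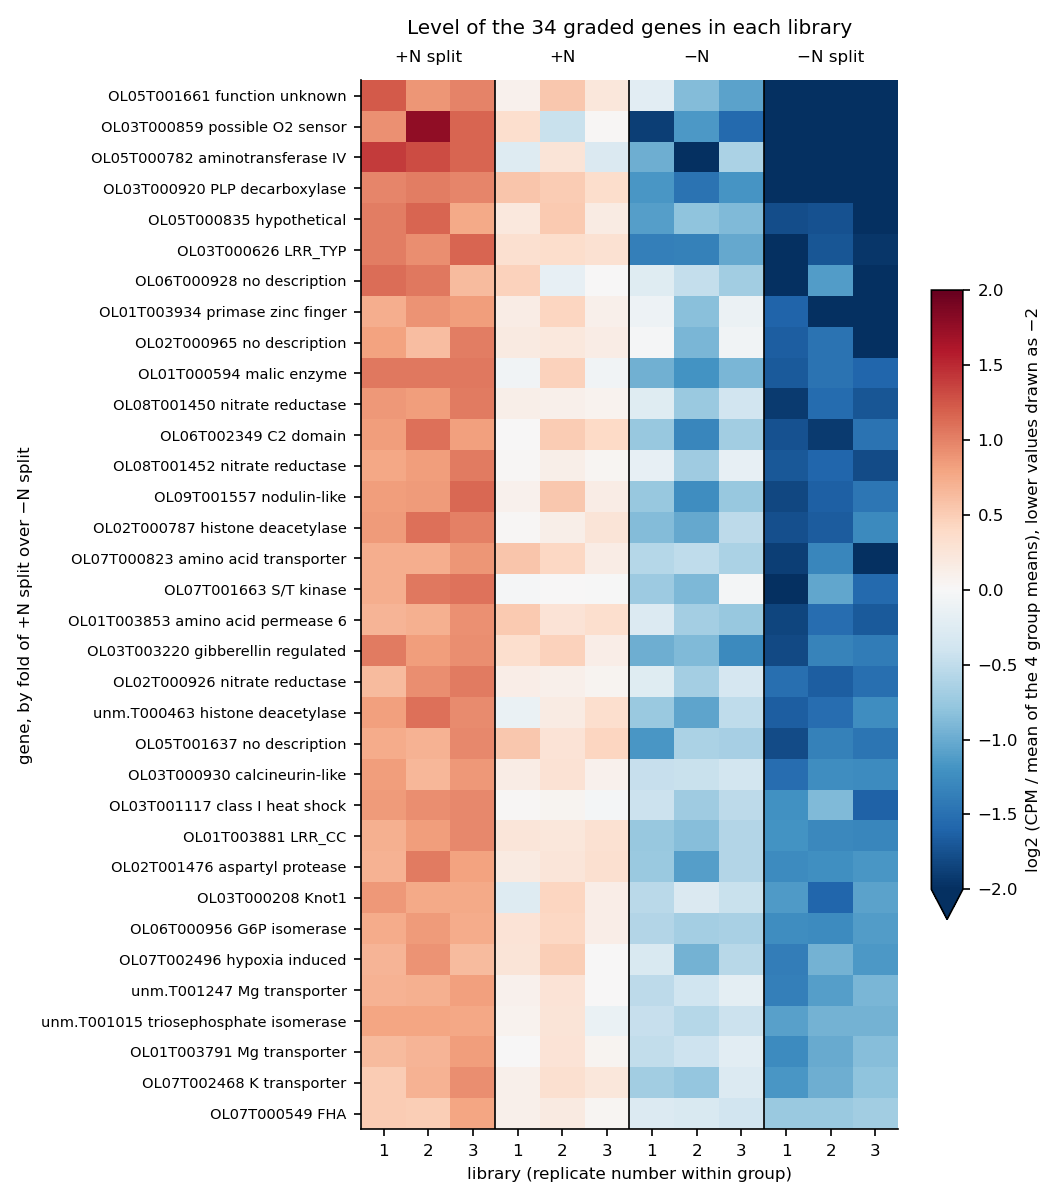
Level of each of the 34 genes (rows, ordered by the fold of +N split over −N split) in each of the 12 libraries (columns, 3 per group), as the log2 of the CPM over the mean of the 4 group means, with values under −2 drawn at the colour of −2. Each row runs from red in +N split to blue in −N split, which the choice of the genes fixes, and the top rows, with folds of up to 23.9, reach the darkest blue.

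Among the genes of carbon metabolism were a malic enzyme, which turns malate into pyruvate, and 2 enzymes of glycolysis. The malic enzyme OL01T000594 stood at 1255, 1253 and 1255 CPM in +N split, 572, 831 and 571 in +N, 311, 262 and 320 in −N, and 189, 217 and 200 in −N split. Its +N split libraries were nearly equal (1254 ± 0.999, SD, n = 3), while +N replicate 2 was well above the other +N libraries (658 ± 150). The mean was 1.91-fold higher in +N split than in +N, 2.21-fold higher in +N than in −N, and 1.48-fold higher in −N than in −N split, 6.22-fold in all.

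A triosephosphate isomerase, unmappedContigsT001015, which interconverts the triose phosphates of glycolysis, had 1854, 1859 and 1838 CPM in +N split, 1132, 1288 and 978 in +N, 779, 725 and 797 in −N, and 508, 556 and 556 in −N split. Its folds at the 3 steps were 1.63, 1.48 and 1.42, so the step between +N split and +N was its largest. It is 1 of only 3 members with the largest fold there, the others being the class I heat shock protein OL03T001117, a small chaperone (9.87 ± 0.358 CPM in +N split against 5.27 ± 0.174 in +N, 1.87-fold), and the FHA domain gene OL07T000549 (1.41-fold). The glucose-6-phosphate isomerase OL06T000956, an early enzyme of glycolysis, had 280.0, 300.0 and 279 CPM in +N split, 201, 222 and 183 in +N, 111, 105 and 106 in −N, and 70.8, 69.6 and 77.2 in −N split. Here the step from +N to −N was the largest (1.88-fold), with 1.42-fold above it and 1.48-fold below it.

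Nitrate reductase, the enzyme that reduces nitrate to nitrite, was the description of 3 members, in roots whose nitrogen source was ammonium. OL08T001450 was measured at 36.5, 35.8 and 41.0 CPM in +N split, 21.6, 21.5 and 21.1 in +N, 17.0, 12.02 and 15.3 in −N, and 5.29, 6.86 and 6.09 in −N split. OL08T001452 had 27.2, 28.4 and 32.6, then 16.2, 17.2 and 16.4, then 14.2, 9.67 and 14.1, and last 4.91, 5.28 and 4.59 CPM in the same groups. OL02T000926 had 14.8, 18.0 and 19.4, then 10.4, 10.1 and 9.91, then 8.06, 5.96 and 7.52, and last 3.35, 3.01 and 3.34 CPM. In all 3 genes the +N libraries were close together and −N replicate 2 was the lowest of its group. All 3 also had their smallest fold between +N and −N (1.45, 1.31 and 1.41 in the order named) and their largest between −N and −N split (2.43, 2.57 and 2.22), with 1.76, 1.78 and 1.72 between +N split and +N.

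A gene with an aminotransferase class IV domain, OL05T000782, belongs to the family that holds the branched-chain amino acid aminotransferases. It was at 27.8, 25.8 and 23.5 CPM in +N split, 8.80, 12.5 and 8.59 in +N, 5.35, 2.61 and 6.78 in −N, and 1.09, 2.12 and 1.10 in −N split. Its fold of 2.58 between +N split and +N was the largest of the 34 genes at that step. Its own largest fold was 3.42, between −N and −N split, where the −N split values rest on 46, 86 and 47 reads. It was 17.9-fold higher in +N split than in −N split, and its −N libraries were widely spread (4.91 ± 2.12, SD, n = 3). The pyridoxal-dependent decarboxylase OL03T000920, whose family includes enzymes that decarboxylate amino acids, had 733, 764 and 735 CPM in +N split, 547, 533 and 476 in +N, 167, 135 and 165 in −N, and 52.6, 94.6 and 90.2 in −N split. Supplied and deprived roots lay far apart for this gene, and its 3.33-fold step from +N to −N was the largest of the 34 at that step.

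**Figure D2:**
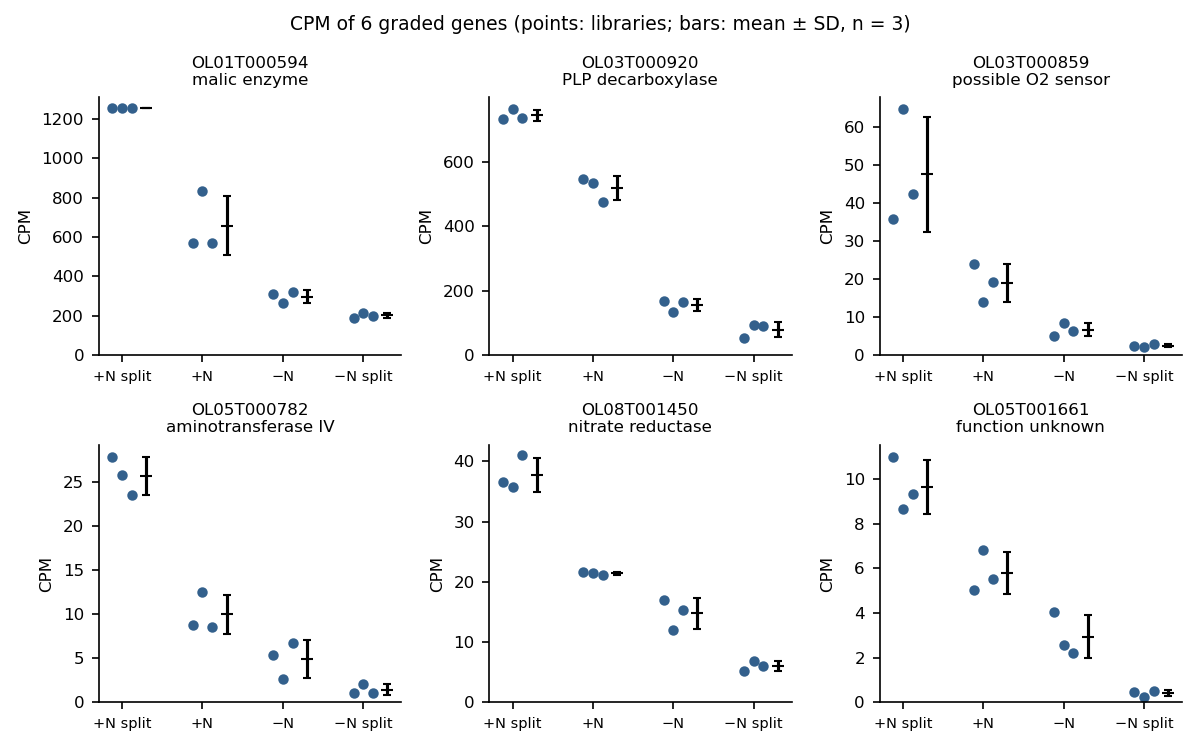
CPM of 6 of the genes in each library (points, 3 per group) with the group mean and SD beside them (bars), on axes that start at 0. The malic enzyme and the decarboxylase OL03T000920 lay at 1254 and 744 CPM in +N split, and OL05T001661 was at 0.404 CPM in −N split.

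Genes whose descriptions name oxygen or hypoxia were among the members as well. OL03T000859 is described as a possible oxygen sensor or electron transfer protein, and it had 35.7, 64.6 and 42.4 CPM in +N split, 23.9, 13.9 and 19.2 in +N, 5.14, 8.55 and 6.45 in −N, and 2.31, 2.27 and 2.87 in −N split. Its 3 folds were alike, 2.50, 2.83 and 2.70, and made a 19.1-fold difference between +N split (47.5 ± 15.1) and −N split (2.48 ± 0.334), with +N split replicate 2 far above the other libraries. The hypoxia induced protein OL07T002496 was at 95.5, 111 and 92.1 CPM in +N split, 71.2, 83.3 and 59.7 in +N, 48.4, 31.0 and 40.6 in −N, and 22.8, 31.0 and 26.9 in −N split. It met the rule by the narrowest margin, since −N replicate 2 (30.99 CPM) and −N split replicate 2 (30.98 CPM) were nearly level, and after TMM scaling or DESeq2 size factors it no longer met it.

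Transport genes made up 5 of the members. The amino acid permease 6 gene OL01T003853, of a family that imports amino acids into cells, had 36.4, 37.2 and 42.8 CPM in +N split, 32.7, 27.5 and 28.8 in +N, 19.0, 14.3 and 13.5 in −N, and 6.42, 7.95 and 7.15 in −N split. The transmembrane amino acid transporter OL07T000823 had 17.6, 17.6 and 19.7, then 15.7, 14.2 and 11.8, then 7.19, 7.54 and 6.85, and last 2.90, 4.32 and 2.59 CPM. Both amino acid transport genes had a small step between +N split and +N (1.31-fold each) and steps of 1.91-fold and 1.94-fold between +N and −N. Their largest steps were between −N and −N split, 2.17-fold for OL01T003853 and 2.20-fold for OL07T000823.

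For metal ions, the magnesium transporter OL01T003791 was at 37.2 ± 2.88 CPM in +N split, 24.5 ± 2.53 in +N, 17.5 ± 1.80 in −N and 11.1 ± 1.57 in −N split (SD, n = 3). A second gene of the same description, unmappedContigsT001247, had 51.6 ± 2.40, 33.7 ± 3.22, 24.1 ± 2.83 and 14.3 ± 2.22 CPM in these groups, and folds of 1.53, 1.40 and 1.68. The K+ transporter OL07T002468, a carrier of potassium across membranes, had 311, 352 and 415 CPM in +N split, 233, 271 and 256 in +N, 134, 127 and 181 in −N, and 97.5, 111 and 125 in −N split. Its −N replicates 1 and 2 came close to the highest −N split library, −N replicate 3 was well above it, and with DESeq2 size factors it did not meet the rule.

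Among genes with kinase or leucine-rich repeat (LRR) descriptions, which often belong to receptors and signalling enzymes, OL03T000626 (LRR_TYP) had 81.5, 77.0 and 90.8 CPM in +N split, 50.1, 51.7 and 50.01 in +N, 15.6, 15.8 and 19.8 in −N, and 8.59, 12.3 and 10.5 in −N split. Its largest fold was 2.96, between +N and −N. OL01T003881 (LRR_CC) had 178 ± 15.4 CPM in +N split, 119 ± 3.50 in +N, 60.3 ± 5.82 in −N and 41.7 ± 1.82 in −N split (SD, n = 3), also with the largest fold, 1.98, between +N and −N. The serine/threonine kinase OL07T001663 was at 33.7, 42.1 and 43.2 CPM in +N split, 20.1, 20.4 and 20.4 in +N, 12.3, 10.97 and 19.8 in −N, and 4.91, 9.95 and 6.96 in −N split. Its −N replicate 3 was nearly level with the lowest +N library, with a ratio of 1.01 between them.

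Other described members came from varied families. The nodulin-like gene OL09T001557, of a membrane protein family named after proteins of legume nodules, had 176, 178 and 218 CPM in +N split, 105, 144 and 109 in +N, 58.5, 41.8 and 58.6 in −N, and 28.0, 31.7 and 36.4 in −N split. Its largest step, 2.25-fold, lay between +N and −N. The aspartyl protease OL02T001476, a protein-cutting enzyme, had means of 318 ± 38.6, 209 ± 10.1, 101 ± 17.6 and 75.8 ± 2.38 CPM (SD, n = 3) from +N split to −N split.

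The histone deacetylase OL02T000787, of enzymes that take acetyl groups off histones, had 127, 151 and 143 CPM in +N split, 71.9, 76.3 and 84.3 in +N, 38.6, 34.6 and 49.3 in −N, and 20.9, 22.2 and 29.1 in −N split. A second histone deacetylase, unmappedContigsT000463, had 113, 137 and 122, then 57.8, 71.5 and 80.4, then 38.1, 30.5 and 44.8, and last 20.4, 22.1 and 26.9 CPM. The primase zinc finger gene OL01T003934, of a domain found in DNA replication proteins, had 108, 121 and 115 CPM in +N split, 71.6, 87.2 and 69.3 in +N, 60.2, 36.2 and 60.0 in −N, and 21.4, 14.7 and 13.4 in −N split. Unlike both deacetylases, whose 3 folds lay between 1.63 and 1.90, the zinc finger gene had a fold of 3.16 between −N and −N split against 1.51 and 1.46 at the other steps.

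The calcineurin-like phosphoesterase OL03T000930, of a family of metal-dependent phosphatases, had 526 ± 37.8, 345 ± 26.2, 227 ± 7.84 and 121 ± 12.8 CPM (SD, n = 3) in the 4 groups from +N split to −N split. The Knot1 gene OL03T000208, whose domain is a small cysteine-rich fold of plant defensins, had 133 ± 5.92, 83.8 ± 19.6, 57.1 ± 5.11 and 32.3 ± 5.99 CPM in the same order. The gibberellin regulated protein OL03T003220, of a family of small cysteine-rich peptides, had 113 ± 7.69, 73.3 ± 8.22, 28.7 ± 3.97 and 20.9 ± 3.48 CPM, with the largest fold, 2.55, between +N and −N. The C2 domain gene OL06T002349, whose domain can bind membranes with calcium, ran from 31.4 ± 3.59 to 5.08 ± 0.787 CPM, 6.17-fold. The FHA gene OL07T000549, with a domain that binds phosphorylated proteins, had the smallest range of the 34, from 284 ± 33.4 to 113 ± 1.89 CPM, 2.51-fold.

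The largest range of all belonged to a gene of unknown function. OL05T001661 had 10.99, 8.65 and 9.32 CPM in +N split, 5.01, 6.81 and 5.52 in +N, 4.04, 2.56 and 2.23 in −N, and 0.472, 0.247 and 0.494 in −N split. Its last step was 7.28-fold, the largest of any member at any step, and the −N split values rest on 20, 10 and 21 reads. The 23.9-fold difference between both sides of the split pairs rests on the fewest reads, since 10 was the lowest count of any member in any library. In all, 4 members had a count under 50 in some library.

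Of the other members without a known function, OL05T000835 had 44.1 ± 6.13 CPM in +N split and 5.47 ± 1.88 in −N split (SD, n = 3), 8.06-fold. OL02T000965 was at 12.6, 11.02 and 14.5 CPM in +N split, 8.06, 8.24 and 7.97 in +N, 7.06, 3.79 and 6.78 in −N, and 2.29, 2.57 and 0.988 in −N split. OL06T000928 was at 12.1, 11.6 and 8.64, then 7.73, 5.001 and 5.63, then 4.71, 4.00 and 3.43, and last 0.802, 2.57 and 0.917 CPM. Both of these had their largest step between −N and −N split (3.02-fold and 2.83-fold), and the −N split libraries of OL06T000928 varied most of all members (SD 69.1% of the mean). OL05T001637 ran from 17.7 ± 1.78 CPM in +N split to 3.54 ± 0.553 in −N split, 5.01-fold. OL05T001637, OL03T001117, OL03T003220 and unmappedContigsT000463 lie outside the rule for naming genes and were added after their values were seen, so that every member is given.

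The steps thus differed in weight among the genes. The largest of the 3 folds lay between +N split and +N in 3 members, between +N and −N in 16, and between −N and −N split in 15. As a share of the whole log2 range, the first step took a median of 29.0% (15.8% to 42.7%), that from +N to −N 35.8% (15.03% to 55.5%) and the last 32.3% (19.0% to 62.6%). The steps of a gene share libraries, so that a high +N mean makes the first step smaller and the next larger. The first and the last step share none, and the first was larger in 11 members and the last in 23.

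**Figure D3:**
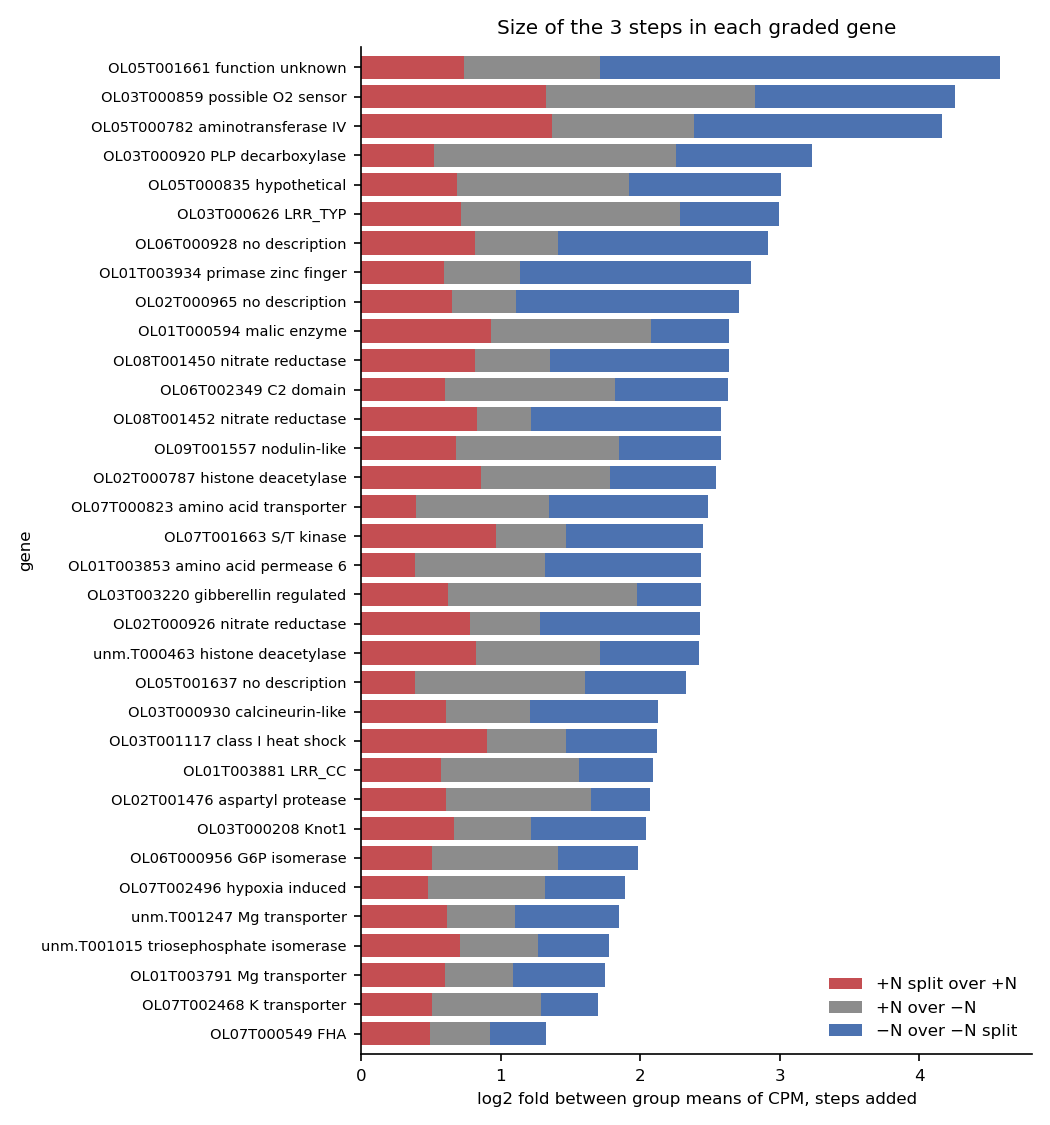
Log2 fold between group means of CPM at each of the 3 steps, added end to end, for each of the 34 genes (rows, ordered by the total). The 3 nitrate reductases, both amino acid transport genes and OL05T001661 have their longest piece between −N and −N split, and OL03T000920 and OL03T000626 have theirs between +N and −N.

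Calls of edgeR's quasi-likelihood test (adjusted p under 0.05 over all 25005 genes tested) were counted beside the share of all genes called in the same direction, and since the rule used these contrasts, nothing is read from them. In +N split against +N, 18 of the 34 members were higher (0.68% of all genes), in +N against −N 29 (10.3%), in −N against −N split 28 (2.74%), and in +N split against −N split 34 (15.6%). The rule also required groups without overlap, which 6.29%, 15.2% and 10.2% of all genes tested showed at the 3 steps. In all, 14 members were called at all 3 steps, 14 at 2, 5 at 1, and the kinase OL07T001663 at none. The shares of all genes called at 3, 2 or 1 of the steps were not counted.

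The triosephosphate isomerase, the malic enzyme, the glucose-6-phosphate isomerase and OL03T000859 were among those called at every step. Among the members not called between +N split and +N were the amino acid transport genes OL01T003853 and OL07T000823, the decarboxylase OL03T000920 and OL05T001661. The aminotransferase gene OL05T000782, with the largest fold of all members at that step, was not called there either (edgeR adjusted p 0.0588). The nitrate reductase OL08T001452 was called at the first and the last step and not between +N and −N. The count of 18 depended on single libraries. Leaving out a +N library gave 5 (replicate 1), 11 (replicate 2) or 0 (replicate 3). Leaving out a +N split library gave 2 for replicate 2, OL03T000930 and unmappedContigsT001015, and 0 for replicate 3. In both fits with 0 calls, 31 of the 34 had an unadjusted p under 0.05, and the DESeq2 Wald test on all libraries called 27. The rule favours small p-values at this step, and shares over all genes were not counted here, so nothing is read from either number. The count of 28 became 16 without −N replicate 3. Leaving out −N replicate 1, whose labels conflict, gave 18 in place of 28 and, between +N and −N, 25 in place of 29. Between +N split and +N it gave 13 in place of 18. The rule then chose 45 genes, with all 34 members among them. Shares over all genes were not counted in these fits, so nothing is read from the counts.

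The log2 fold of the first step minus that of the last, taken from the same edgeR fit, is a description as well, since the thresholds were set on both steps in these libraries. Over the 34 genes it had a median of −0.09 and ran from −2.08 to 0.40, with 12 above 0 and 22 below, so more members had the larger step on the deprived side. It was −2.08 for OL05T001661, −1.04 for the primase zinc finger gene OL01T003934, −0.69 and −0.71 for the amino acid transport genes OL01T003853 and OL07T000823, and −0.50 for the nitrate reductase OL08T001452. By edgeR 0 members were called, beside 0.012% of all genes higher and 0.052% lower. An unadjusted p under 0.05 was reached by 5 of the 34 members, beside 9.21% of all genes tested. The DESeq2 Wald test called 2 members (OL05T001661 and OL01T003934), and its share over all genes was not counted. Nothing is read from these counts.

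The order was also read in libraries that had not chosen the genes. The rule was applied to the 8 libraries of 2 replicate numbers, and the 4 libraries of the number left out were then read, with the numbers used as names only. Of 64 genes chosen without replicate 1, 45 (70.3%) fell in the full order in the 4 libraries held out, beside 5.75% of all genes with a +N split mean of at least 5 CPM. Of 46 chosen without replicate 2, 39 (84.8%) did, beside 7.09%, and of 53 chosen without replicate 3, 41 (77.4%) did, beside 6.17%. Of the 34 members, 30, 27 and 28 were among the chosen, and they make up most of the genes in order. All 12 libraries chose the members, so their order in the held-out libraries was fixed. Among the other chosen genes the share in order is therefore lower than the shares given, and it was not counted. The shares therefore describe the genes chosen in a turn and are no test of the 34. The genes of a turn share the same 4 libraries, so no interval is given.

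The step that failed differed between turns, and a single step in this direction was common among all genes. Members are included here too, and in CPM the rule let none of them fail a step. In the replicate 3 libraries 53, 41 and 53 of the 53 genes were in the direction of the order at the 3 steps, beside 31.4%, 46.2% and 44.5% of all genes. In the replicate 2 libraries it was 44, 46 and 41 of 46, beside 44.0%, 41.3% and 53.3%, and in the replicate 1 libraries 56, 60 and 56 of 64, beside 40.7%, 47.7% and 34.4%. The exceptions thus lay between +N and −N in the replicate 3 libraries and at the other steps in the replicate 2 libraries. The median folds in the held-out replicate 3 libraries were 1.75, 1.27 and 2.53 at the 3 steps, against 1.66, 1.66 and 1.91 in the libraries that chose the genes. In the replicate 2 libraries they were 1.34, 2.19 and 1.37 against 1.51, 1.60 and 1.75, the reverse of replicate 3 in that the first and the last step were the smaller ones. In the replicate 1 libraries they were 1.52, 1.66 and 1.85 against 1.56, 1.74 and 1.76. With TMM-scaled values 62 of 84, 53 of 68 and 51 of 65 chosen genes fell in the order, beside 9.26%, 9.65% and 9.87% of all genes.

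**Figure D4:**
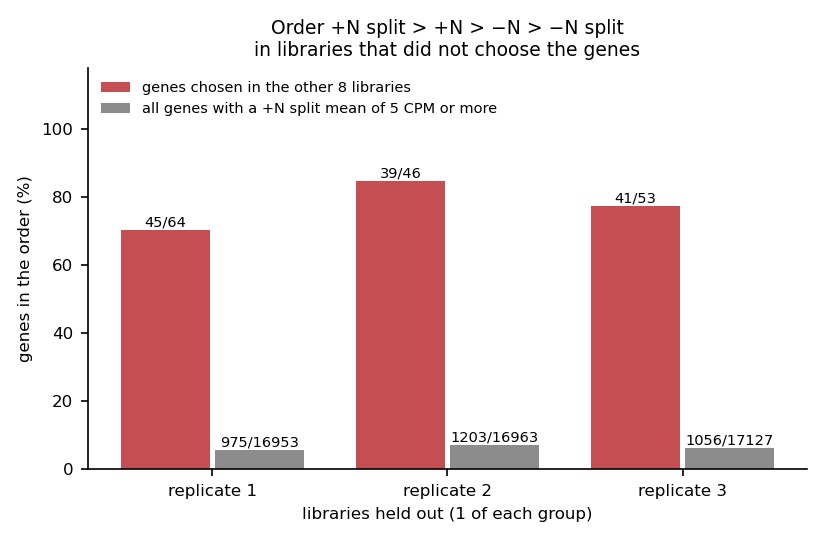
Share of genes (%, vertical axis) in the order +N split, +N, −N, −N split in the 4 libraries of the replicate number held out (horizontal axis), for genes chosen in the other 8 libraries (red) and for all genes with a +N split mean of at least 5 CPM (grey), with the counts above each bar. The red bars stand at 70.3%, 84.8% and 77.4%, the grey bars at 5.75%, 7.09% and 6.17%. The red bars include members, whose order in the held-out libraries was fixed.

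Within groups, some libraries were the highest or lowest for many of the members. Replicate 2 was the highest +N library in 22 of the 34 genes and replicate 3 the lowest in 18. In −N, replicate 2 was the lowest in 20 genes, with a median of 88.8% of the group mean, and in −N split, replicate 1 was the lowest in 21, with a median of 89.1%. The malic enzyme and the nodulin-like gene showed both the high +N replicate 2 and the low −N replicate 2.

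Several members share a description with another gene, and for some of these pairs the counts ran in a nearly fixed ratio. The counts of the magnesium transporter OL01T003791 were 0.693 to 0.782 of those of unmappedContigsT001247 over the 12 libraries, so the highest ratio was 1.13 times the lowest. For the histone deacetylases OL02T000787 and unmappedContigsT000463 the ratio ran from 1.00 to 1.24. For the nitrate reductases OL08T001450 and OL08T001452 it ran from 1.08 to 1.34. The triosephosphate isomerase unmappedContigsT001015 and OL01T000318, a gene with an *Ol* name that was left out of the set, had a ratio of 0.910 to 0.985, 1.08 times from lowest to highest, and the figure was 1.26 for the glucose-6-phosphate isomerase OL06T000956 and OL03T003308, also left out for its name. Other pairs of one description varied more, 1.56 times for the nitrate reductases OL02T000926 and OL08T001450, 1.37 times for OL02T000926 and OL08T001452, and 1.45 times for unmappedContigsT001015 and OL01T003601, which was also left out of the set. Among the 556 pairs of members without a shared description the corresponding figure was 1.32 at the lowest and 2.55 at the median. How reads of near-identical copies were counted is not stated, and whether these genes share reads was not tested.

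Near the thresholds, OL05T001661 had the lowest +N split mean inside (9.65 CPM) and OL05T002118 the highest outside among genes that failed on this alone (3.66 CPM). At the first step OL01T003853 lay just inside at 1.31-fold and the ABC transporter OL06T002423 just outside at 1.29-fold. Between +N and −N the nitrate reductase OL08T001452 lay inside at 1.31-fold and OL03T001177 outside at 1.28-fold, and between −N and −N split OL07T000549 lay inside at 1.32-fold and the serine hydrolase OL01T002202 outside at 1.29-fold. The requirement of no overlap alone kept out the phosphofructokinase OL05T000593, an enzyme of glycolysis, whose lowest −N library was 0.971 of its highest −N split library. In the same way it kept out OL05T000036 between +N and −N (0.988) and OL03T000906, described as an oxygen carrier, between +N split and +N (0.854). In all 59 genes failed exactly 1 criterion.

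Other genes of the same pathways were counted from lists of descriptions in the study's tables of changed genes. These were chosen on these samples and so are not independent evidence of a direction. The tables used gave genes raised in +N split, in +N or in −N. The table of genes reduced in supplied roots by a deprived partner was not a source. Low counts of lower genes and positive medians at the first step are therefore partly set by this choice. Of 47 genes of glycolysis and pyruvate metabolism, 3 of them members, 19 were higher and 0 lower in +N split than in +N by edgeR's adjusted test, with a median log2 fold of 0.43 beside −0.02 over all genes tested. In +N against −N 33 were higher and 2 lower, and in −N against −N split 13 were higher and 5 lower. In +N split against −N split 38 were higher and 3 lower. Of all genes tested, 0.104%, 8.84%, 1.27% and 16.8% were lower in these 4 comparisons.

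Of 41 genes of nitrogen assimilation and amino acid synthesis, 4 of them members, 15, 26 and 12 were higher at the 3 steps and 1, 6 and 2 lower, with median log2 folds of 0.47, 0.56 and 0.27. Of 46 genes of low oxygen and fermentation, 2 of them members, 6, 22 and 19 were higher and 0, 8 and 0 lower, with medians of 0.24, 0.53 and 0.38. The first list had more calls between +N split and +N than between −N and −N split, the other the reverse, and this difference was not tested. Over all genes tested 0.68% were higher at the first step and 2.74% at the last, the same direction as in the low oxygen list. Of 189 genes described as transcription factors 0 were members. Members were 34 of all 25005 genes tested, so a list of this size can hold 0 without this being a result. In this list 106 were higher and 31 lower in +N than in −N, with 11 higher and 0 lower at the first step and 19 higher and 1 lower at the last. Transport gave 5 members of 167 genes and kinase or LRR descriptions 3 of 151. As the lists hold only genes reported as changed, nothing is read from these counts or medians against those over all genes.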

How the data were processed

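Root mRNA libraries were sequenced in 4 groups of 3. The authors used HISAT2 for mapping and featureCounts for counting, and deposited unnormalized counts per gene model and, for each library, log2 CPM. Their versions, the strand setting and the handling of multiply mapped reads were each not given in the sources used here. The deposited log2 CPM equal those that edgeR gives from the counts with a prior count of 2 (largest difference 5.0e-09), so only the counts were analysed. In one log2 file the header misspells the replicate, and its values match +N replicate 2.

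CPM were computed from column sums, and the rule was applied to them in Python 3.11.15. Names that exclude a gene came from the tables read, which give 19 names. Counts were fitted in R 4.3.3 with edgeR 4.0.16 (filterByExpr, minimum count 10; TMM; a mean per group, 8 residual degrees of freedom; glmQLFTest; Benjamini-Hochberg adjustment), and DESeq2 1.42.0 gave the Wald test. The edgeR steps were tested on simulated data. Values are means ± SD of 3 libraries. The methods give independently prepared ramet pairs for the graphed measurements, without naming the sequenced libraries, so p-values here measure the spread between these libraries, which may be technical.

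The members, lists and tests were chosen with earlier results of these data known. Genes named are the 12 members with the largest range, the 12 with the highest mean CPM, those matching a list of descriptions and those nearest a threshold. Lists covered glycolysis, nitrogen assimilation, low oxygen, transcription factors, kinases, transport, nodulins (12 genes, 1 member), protein turnover (100 genes, 1 member) and photosynthesis (25 genes, 0 members). Alternatives were other scalings, filters, folds and thresholds, a replicate block, and each library left out. No genome, sequence or coordinates were used here, and the RT-qPCR, tracer and hormone measurements were not analysed here.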

Additional observations from a re-analysis of the deposited data

How the results depend on the processing

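The rule gave 68 genes with 1.2-fold steps, 11 with 1.5-fold steps and 80 without the requirement of no overlap, in place of 34. Leaving out a library gave 36 to 45 genes, with 29 to 34 of the members kept, and TMM or DESeq2 size factors gave 50 and 51, with 33 and 32 kept. In all 22 members were kept under both scalings and every library left out. Of 1088 folds of members recomputed, 0 changed direction and 8 moved by more than the spread. The rule fixed the direction whenever a library was left out, so only the other scalings could have reversed a fold. At an adjusted p under 0.01, 0 members were called in +N split against +N and 12 in −N against −N split. In the former all 34 had an unadjusted p under 0.05, which the rule favours. Shares over all genes were not counted at the threshold of 0.01.

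Leaving out single libraries gave 0 to 19 members called in +N split against +N, 22 to 30 in +N against −N, 16 to 28 in −N against −N split, and 0 to 1 for the difference of steps (OL01T003934, without −N replicate 2), for which the DESeq2 Wald test called 2. The 34 calls in +N split against −N split held in each of these fits, which the rule favours. It set every +N split library of a member above every −N split library. Shares over all genes were not counted in these fits, so nothing is read from the counts. The cause of each change was not tested.

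Same-numbered libraries were not paired by the labels, and their deviations correlated from −0.158 to 0.233, with 5 of 18 pairs over 0.1. Of 36 best matches, each picked among the 3 libraries of another group, 18 were with the own number. Whether same-numbered libraries are related was not tested. With the replicate block the counts were 15, 28, 28 and 34 members in the 4 comparisons and 0 for the difference of steps. The shares over all genes were not counted in this fit, so nothing is read from them.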
